A study of Homo sapiens with 12 samples.

Results

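The comparison set the line carrying catalytically dead TIP60 against the line carrying wild-type TIP60, both under control siRNA, so that the cells' own TIP60 was present in each. The members were 4 of the series' 12 RNA-seq libraries: dead TIP60 with control siRNA (*KD-TIP60 siControl, R1 and R2) and wild-type TIP60 with control siRNA (*WT-TIP60 siControl, R1 and R2). All were MCF10A cells, an established non-tumour human breast epithelial line, that stably expressed an siRNA-resistant TIP60 copy and were harvested 72 h after siRNA transfection. In the rest of the series the empty-vector line (MSCV) got both siRNAs, and both TIP60 lines also got TIP60 siRNA. Each construct is represented by a single stable derivative, so construct and line cannot be told apart, and the labels do not say whether R1 and R2 came from separate cultures, so p-values measure the spread between these libraries. Of 8712 exon-skipping events listed in any library, 5938 were listed in the 4 libraries, and 3506 events in 2391 genes had 10 or more reads specific to one form in each of the 4. The 157 events whose lowest library held exactly 10 such reads had a median absolute difference in inclusion of 0.03, and the 165 events with 9, which were left out, had 0.035.

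TIP60 is the protein made by KAT5. It is a lysine acetyltransferase and the catalytic subunit of the human NuA4 complex, which acetylates histones H4 and H2A at promoters and at DNA breaks, and it also acetylates other proteins such as ATM and p53. A catalytically dead copy can still take up the protein's place in complexes without acetylating substrates. The readout was exon inclusion, the fraction of a gene's messages that keep a cassette exon when the exons on either side of it are joined either through it or past it. Splicing is carried out largely while the message is still on chromatin.

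The exons the account turns on are shown first, because their length and reading frame define what each event measures. The cassette exon is in capitals, and the 15 bases on each side, in lower case, belong to the neighbouring exons in a transcript that holds all of them. They were read from GENCODE 29 transcripts (GRCh38), 5′ to 3′ on the gene's strand. KAT5 is the gene of the expressed copies, MARK3, CLSTN1 and HDAC7 are exons that belong both to the named exons and to the siRNA-responsive list described below, and NKIRAS2, PLOD2 and SMARCC2 have the smallest p-values among exons whose libraries do not overlap between the lines.
KAT5 (chr11:65713348-65713503, plus strand): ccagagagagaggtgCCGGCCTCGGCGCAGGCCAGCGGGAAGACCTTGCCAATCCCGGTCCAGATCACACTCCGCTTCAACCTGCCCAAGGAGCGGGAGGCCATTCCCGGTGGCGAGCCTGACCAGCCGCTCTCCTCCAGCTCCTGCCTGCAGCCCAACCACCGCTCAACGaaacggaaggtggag
MARK3 (chr14:103498502-103498528, plus strand): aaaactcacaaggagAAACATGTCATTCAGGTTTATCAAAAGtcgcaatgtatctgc
CLSTN1 (chr1:9756481-9756510, minus strand): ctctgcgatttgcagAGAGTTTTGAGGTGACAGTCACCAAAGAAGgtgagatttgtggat
HDAC7 (chr12:47795906-47796016, minus strand): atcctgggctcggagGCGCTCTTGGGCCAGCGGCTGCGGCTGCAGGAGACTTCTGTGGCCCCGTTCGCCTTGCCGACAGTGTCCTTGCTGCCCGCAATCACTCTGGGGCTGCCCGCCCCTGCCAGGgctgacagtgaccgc
NKIRAS2 (chr17:42022399-42022472, plus strand): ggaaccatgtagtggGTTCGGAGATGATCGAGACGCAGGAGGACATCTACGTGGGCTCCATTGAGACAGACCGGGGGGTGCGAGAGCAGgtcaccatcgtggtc
PLOD2 (chr3:146077862-146077924, minus strand): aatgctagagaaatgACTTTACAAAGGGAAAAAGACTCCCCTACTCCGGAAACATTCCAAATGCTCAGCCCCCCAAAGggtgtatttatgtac
SMARCC2 (chr12:56164303-56164368, minus strand): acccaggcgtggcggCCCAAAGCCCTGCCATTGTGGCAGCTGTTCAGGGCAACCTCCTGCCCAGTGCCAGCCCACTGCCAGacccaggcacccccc
All of these exons are coding. The NKIRAS2 exon, at 74 nt, is the only one of the 7 whose length is not a multiple of 3.

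The 2 sets of libraries differed in depth. The R1 libraries held 1983221 to 2079548 event reads, meaning reads that fit at least one form of an event, and the R2 libraries 1505391 to 1566296. Among all reads placed on events, 52.8% to 52.9% fitted neither form in R1 and 64.6% to 64.7% in R2. The median 95% interval that MISO gave for an inclusion value was 0.26 to 0.27 wide in R1 and 0.37 to 0.38 in R2, and these intervals cover read sampling within a library only. Of 15 epithelial markers fixed for the check of the label, 6 had a listed event, and their summed level was 2775 and 3156 reads per 1000000 event reads (RPM) in dead-TIP60 libraries R1 and R2, against 4116 and 4107 RPM in wild-type libraries. KRT5, KRT14 and EPCAM had no listed event and were not measured here. Of 10 mesenchymal markers, FN1, ZEB1 and ZEB2 had a listed event, with sums of 827 and 239 RPM in dead-TIP60 libraries against 346 and 21.9 RPM in wild-type libraries. The marker sums count every listed event of a gene, and FN1, with 4 events, made up nearly all of the mesenchymal sum. ZEB1 had 1.92 and 0.638 RPM in dead-TIP60 libraries against 2.52 and 0.664 RPM in wild-type libraries. ZEB2 had 8.66 and 1.92 RPM in dead-TIP60 libraries against 5.55 and 0 RPM in wild-type libraries. Of 7 immune markers, only CSF1R and LYZ had a listed event, with sums of 8.17 and 21.1 RPM in dead-TIP60 libraries and 4.54 and 0 RPM in wild-type libraries.

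KAT5 reads of the form without its cassette exon were far higher in both construct lines than in the vector line, and lower in the dead line than in the wild-type line. The sequence of the expressed copies was not used here, so these reads are not assigned to the copy by sequence. Reads for the KAT5 form without the 156-nt exon stood at 988 RPM in R1 and 35.1 RPM in R2 of the dead-TIP60 line, against 2291 and 93.0 RPM in the wild-type line. The vector line had 8.38 and 0.731 RPM of that form, the last value resting on 1 read. Within the same-number pairs the ratio of dead to wild type was 0.431 in R1 and 0.378 in R2, with a geometric mean of 0.403, so the dead line had the lower level in both pairs. Both values of the dead line lay far above those of the vector line in the same set. In every line the form without the exon was far lower in R2 than in R1. KAT5 reads that fit neither form were instead higher in R2, so levels of the form without the exon are compared within a set only. The form with the exon, which the vector line also makes, stood at 12.02 and 6.38 RPM in the dead-TIP60 line and at 11.6 and 5.31 RPM in the wild-type line, from 25 and 10 reads in the dead line against 23 and 8 in the wild-type line. Inclusion of the KAT5 exon was accordingly 0 and 0.02 in the dead line and 0 and 0.01 in the wild-type line, while the vector line had 0.28 and 0.50. The construct differences described below therefore compare lines that carry a different copy, by their labels, and that also differ in the level of this KAT5 form, and these cannot be told apart. TIP60 activity was not analysed here. Over all KAT5 event reads the log2 ratio of dead to wild type was -1.22 ± 0.86 (SE), with an adjusted p of 1.00 in the limma fit of all 12 libraries and 7.8e-10 in the fit of the 4 libraries alone. Under TIP60 siRNA the ratio of the form without the exon was 0.535 in R1 and 0.367 in R2.

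**Figure D1:**
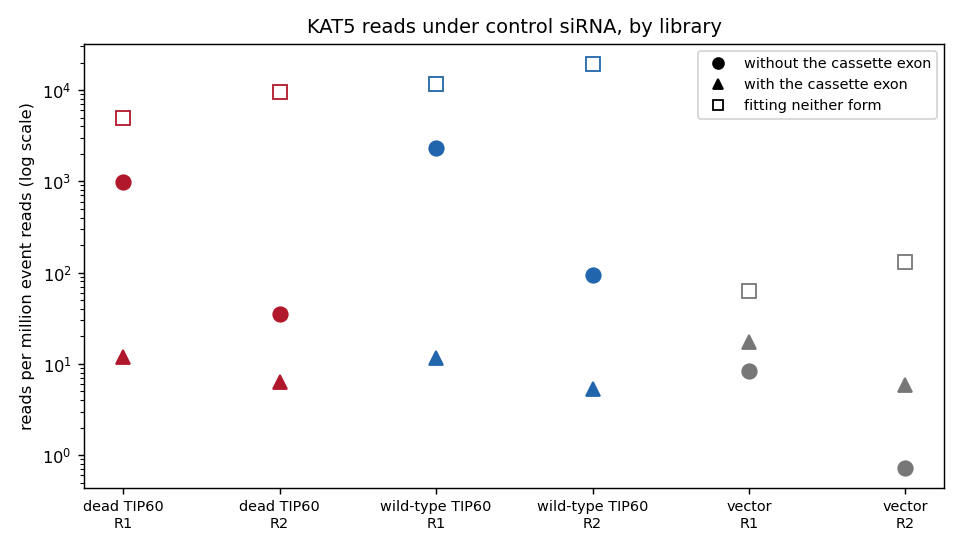
KAT5 reads in RPM (log axis) in each control-siRNA library of the dead-TIP60, wild-type and vector lines; circles are reads of the form without the cassette exon, triangles of the form with it and open squares reads that fit neither form. The form without the exon stood at 988 and 35.1 RPM in dead TIP60, against 2291 and 93.0 RPM in wild type, and the form with the exon between 5.31 and 12.02 RPM in these 4 libraries.

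No exon differed in inclusion between dead and wild-type TIP60 past the threshold, an adjusted p of 0.05 in limma with the replicate number as a block. Of 3506 events, 0 passed (0%), and the smallest adjusted p was 0.761. At an unadjusted p under 0.05 there were 103 events (2.94%), 55 higher in the dead line (1.57%) and 48 lower (1.37%). The median absolute difference was 0.02. It was over 0.1 for 234 events (6.67%) and over 0.2 for 25 (0.713%). The 95% interval of the difference lay within 0.1 of 0 for 1600 events (45.6%) and within 0.2 for 2692 (76.8%), so for the remaining events a difference of that size lay within the interval. Across events the differences of the R1 pair and of the R2 pair had a correlation of 0.050, a description over 3506 events that share libraries. In 1217 events (34.7%) both pairs differed in the same direction. The rest include events with a difference of 0 in either pair, so they did not all differ in opposite directions.

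**Figure D2:**
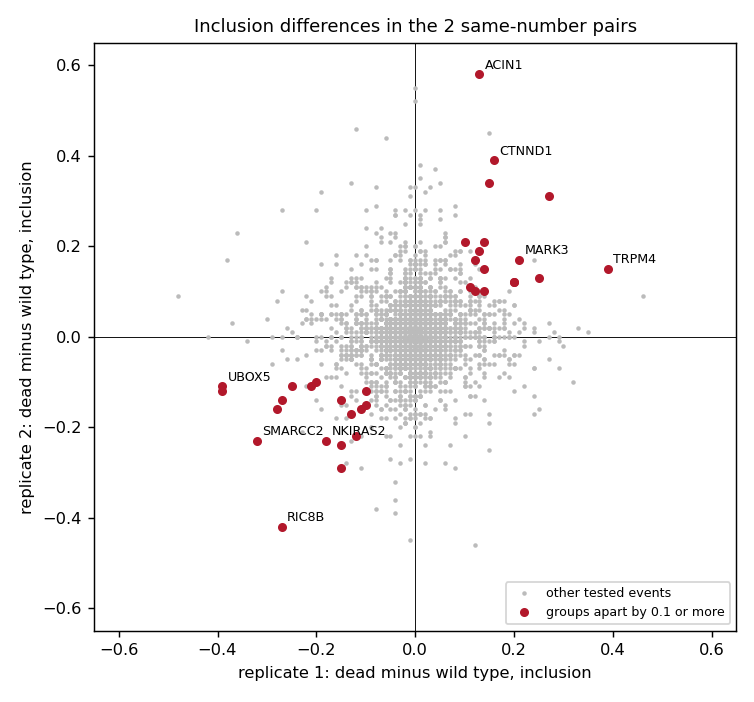
Inclusion difference (dead minus wild type, control siRNA) of each of the 3506 tested events in the R1 pair (horizontal) and the R2 pair (vertical); red points are the 35 events whose groups lie 0.1 or more apart. The cloud is round, with a correlation of 0.050, and the red points lie in 2 corners because the criterion selects them there.

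Exons are described here although none passed, to show what the differences of smallest p looked like. They are the 10 events with the smallest p in each direction among those whose libraries do not overlap, which was the case for 453 of 3506 events (12.9%; 6.73% higher and 6.19% lower in the dead line), plus 1 event whose MISO intervals were apart in both pairs. All 21 had an unadjusted p under 0.05 and none passed the adjustment.

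Among exons higher in the dead line, the 27-nt exon of MARK3, a kinase that phosphorylates microtubule-associated proteins, had an inclusion of 0.47 and 0.48 in dead-TIP60 libraries R1 and R2, against 0.26 and 0.31 in wild-type libraries. Both dead-TIP60 values lay above both wild-type values, and the vector line lay between them at 0.36 and 0.41. The difference was 0.190 ± 0.035 (SE, unadjusted p = 0.0014 in limma, adjusted p = 0.994). The 30-nt exon of CLSTN1, which encodes a calsyntenin of the cadherin superfamily, had 0.20 and 0.12 in the dead line against 0.04 and 0.04 in the wild-type line, a difference of 0.120 ± 0.024 (SE). The vector line, at 0.14 and 0.13, lay within the range of the dead line, and the wild-type line was the low one. The 63-nt exon of PLOD2, a lysyl hydroxylase that modifies collagen, had 0.68 and 0.72 in the dead line against 0.56 and 0.55 in the wild-type line, with 0.59 and 0.62 in the vector line. Its difference of 0.145 ± 0.019 (SE) comes from a fit in which 2 of the other 8 libraries had too few reads and were left out, and the R2 values rest on 26 and 19 form-specific reads. The values were closer to each other in HNRNPD, an RNA-binding protein that acts in mRNA decay, whose 57-nt exon had 0.91 and 0.86 in the dead line against 0.84 and 0.81 in the wild-type line. It is among the most deeply covered of these exons, with 442 to 452 form-specific reads in dead-TIP60 libraries and 353 to 430 in wild-type libraries, and its difference was 0.060 ± 0.015 (SE).

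CTNND1 was the only event apart by 0.1 or more whose MISO intervals were also apart in both pairs. It encodes p120 catenin, which stabilises cadherins at cell junctions, and its 289-nt, partly coding exon (chr11:57791385-57791673) had 0.31 and 0.50 in the dead line against 0.15 and 0.11 in the wild-type line. The intervals ran from 0.23 to 0.41 and from 0.26 to 0.75 in the dead line, and from 0.10 to 0.22 and from 0.06 to 0.19 in the wild-type line. The vector line had 0.26 and 0.23, between the other two. The difference was 0.275 ± 0.065 (SE, adjusted p of 1 in limma, with 2 of the other 8 libraries left out).

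The remaining exons with higher inclusion in the dead line belonged to genes of unrelated roles. The adaptor GRB2 (0.97 and 0.93 in dead TIP60, 0.92 and 0.88 in wild type), the phosphatase CPPED1 (0.98 and 0.99 in dead TIP60, 0.92 and 0.93 in wild type) and EBPL, an emopamil-binding-like protein (0.93 and 0.95 in dead TIP60, 0.85 and 0.91 in wild type), were nearly always included, with differences of 0.050 to 0.060. The exon of DCN, which encodes the matrix proteoglycan decorin, had 0.96 and 0.94 in dead TIP60 against 0.90 and 0.86 in wild type. The cation channel TRPM4 had 0.85 and 0.80 in dead TIP60 against 0.46 and 0.65 in wild type, and its MISO intervals overlapped in both pairs. RNF43, a ubiquitin ligase that removes Wnt receptors, had 0.87 and 0.77 in dead TIP60 against 0.67 and 0.65 in wild type from 10 to 24 form-specific reads a library.

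Among exons lower in the dead line, the 74-nt exon of NKIRAS2, a Ras-like protein that binds the NF-kappa-B inhibitor, had the smallest p of the whole comparison. Its inclusion was 0.65 and 0.56 in dead-TIP60 libraries against 0.83 and 0.79 in wild-type libraries, with 0.71 and 0.64 in the vector line. The difference was -0.205 ± 0.030 (SE, unadjusted p = 0.00042, adjusted p = 0.761 in limma), from 16 to 22 form-specific reads a library, and the MISO intervals overlapped in both pairs. The 66-nt exon of SMARCC2, a core subunit of SWI/SNF chromatin remodellers, had 0.63 and 0.56 in the dead line against 0.95 and 0.79 in the wild-type line, with 0.84 and 0.66 in the vector line. Its difference was -0.275 ± 0.036 (SE, adjusted p = 0.994 in limma, with 2 of the other 8 libraries left out), and its intervals were apart in R1, 0.45 to 0.80 in the dead line and 0.83 to 0.99 in the wild-type line, but overlapped in R2. The 111-nt exon of HDAC7, a class IIa histone deacetylase, had 0.58 and 0.77 in the dead line against 0.78 and 0.91 in the wild-type line, a difference of -0.170 ± 0.044 (SE). The vector line had 0.50 and 0.70 for HDAC7, below both construct lines in each set.

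The exon of RIC8B, a chaperone of G-protein alpha subunits, had the largest difference in this direction, -0.345 ± 0.084 (SE), with 0.40 and 0.22 in the dead line against 0.67 and 0.64 in the wild-type line. The vector line was split, at 0.63 in R1 and 0.27 in R2. RBM33, an RNA-binding protein, had 0.04 and 0.02 in dead TIP60 against 0.14 and 0.14 in wild type. IGF2BP2, an mRNA-binding protein, had 0.60 and 0.66 in dead TIP60 against 0.85 and 0.77 in wild type. MAPKAP1, the SIN1 subunit of the kinase complex mTORC2, had 0.92 and 0.87 in dead TIP60 against 0.97 and 0.93 in wild type. The centrosomal protein CEP57 had 0.82 and 0.76 in dead TIP60 against 0.95 and 0.93 in wild type. UBOX5, a U-box ubiquitin ligase, had 0.32 and 0.31 in dead TIP60 against 0.71 and 0.42 in wild type. The HPS5 exon, in a subunit of the lysosome-related organelle complex BLOC-2, had 0.46 and 0.39 in dead TIP60 against 0.61 and 0.63 in wild type. For 6 of these exons, RIC8B, UBOX5, CEP57, HPS5, NKIRAS2 and RBM33, at least one of the 4 libraries held fewer than 30 form-specific reads.

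**Figure D3:**
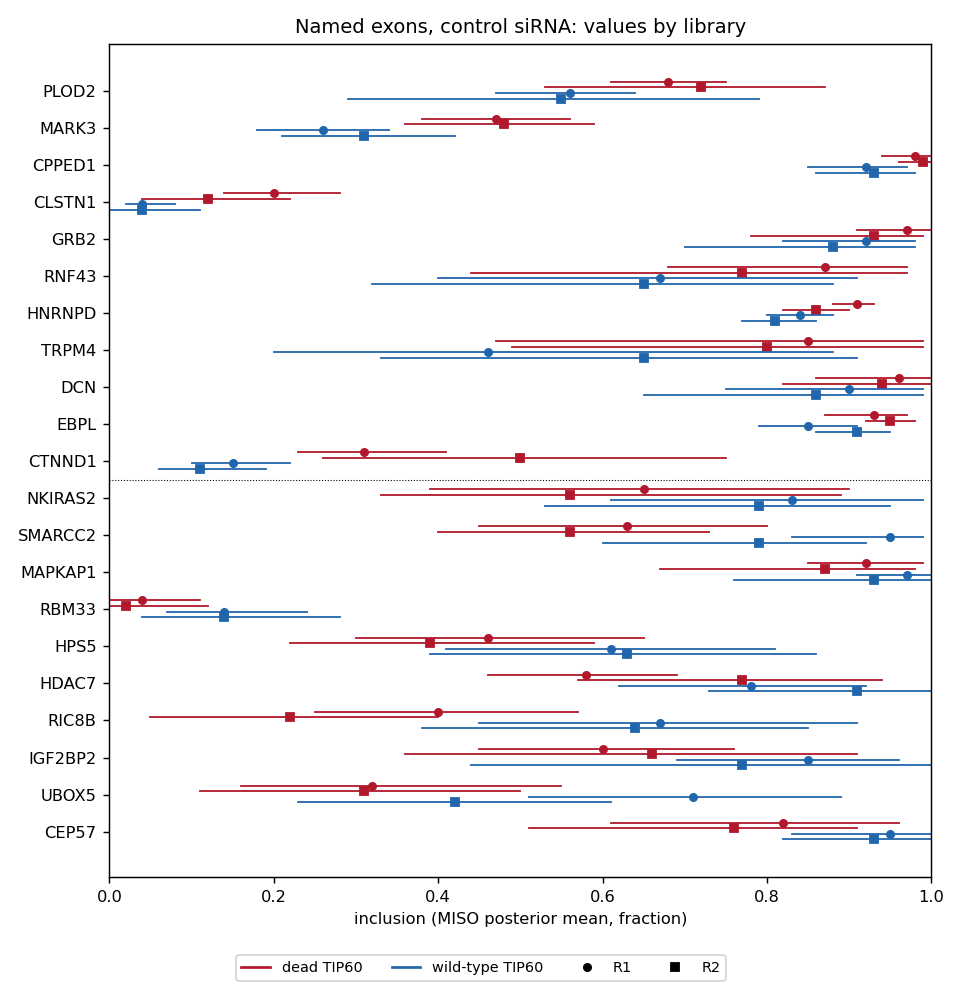
Inclusion of the 21 named exons in each library (MISO posterior mean, with its 95% interval as a bar), dead TIP60 in red above wild type in blue, circles for R1 and squares for R2; exons higher in dead TIP60 are above the dotted line. CTNND1, at 0.31 and 0.50 in dead TIP60 against 0.15 and 0.11 in wild type, is the only one whose bars are apart in both pairs.

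Without regard to the fit, 35 events in 35 genes (0.998% of 3506) had both dead-TIP60 libraries 0.1 or more above both wild-type libraries, in 17 events (0.485%), or 0.1 or more below them, in 18 (0.513%). Beyond those named above, ACIN1, an RNA-binding protein that binds spliced messages, had 0.34 and 0.69 in dead TIP60 against 0.21 and 0.11 in wild type, from a fit with 9 libraries. PRMT2, an arginine methyltransferase, had 0.67 and 0.87 in dead TIP60 against 0.40 and 0.56 in wild type. PRC1, a microtubule bundling protein of the mitotic midzone, had 0.42 and 0.52 in dead TIP60 against 0.32 and 0.31 in wild type. These 3 were chosen after their values were seen. The separated events were thinly covered: the lowest library of an event held 19 form-specific reads in the median, against 40 over all tested events. Their exon lengths were multiples of 3 in 21 of 35, against 2013 of 3506 over all tested events, and separated events made up 1.29% of exons up to 50 nt, 0.966% of exons of 51 to 250 nt and 1.07% of longer exons. By position, they made up 1.00% of coding exons, 1.56% of partly coding exons and 0.906% of 5′ UTR exons.

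The same exons under TIP60 siRNA, which targets the cells' own TIP60, were measured in 4 other libraries. Those libraries share the limma fit that gave the standard errors and p-values above, so they are not independent of it. Of the 35 separated events, 20 could be followed there. The dead-minus-wild-type difference had the same direction in 10 of the 20, and 0 were again 0.1 or more apart in that direction. MARK3 had 0.04 and 0.07 in the dead line against 0.11 and 0.02 in the wild-type line under TIP60 siRNA, and CLSTN1 had 0.03 and 0.04 in the dead line against 0.04 and 0.02 in the wild-type line, so both exons were near 0 in both lines. NKIRAS2 had 0.83 and 0.72 in the dead line against 0.77 and 0.69 in the wild-type line. RIC8B, lower in the dead line under control siRNA, was higher in it under TIP60 siRNA, at 0.77 and 0.71 against 0.60 and 0.51 in the wild-type line. SMARCC2 kept the order it had under control siRNA, with 0.50 and 0.48 in the dead line against 0.81 and 0.63 in the wild-type line, but the dead-line R2 library held fewer than 10 form-specific reads there, which kept it out of that test. Over the 2870 events with enough reads, the control-siRNA and TIP60-siRNA construct differences had a correlation of 0.059. The comparison under TIP60 siRNA itself called 0 of 2870 events (0%) in limma, with 148 at an unadjusted p under 0.05 (5.16%). The test of the difference between both comparisons called 0 of 2870 events (0%) in limma and had 83 at an unadjusted p under 0.05 (2.89%). MARK3 was among these, with a change in the construct difference of -0.20 (unadjusted p = 0.0064, adjusted p of 1 in limma).

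The 25 genes whose exons were reported to respond to TIP60 siRNA were taken from an earlier account of these same libraries, so the list is not independent of the data. For each gene the exon with the largest siRNA difference in vector cells was used, since vector libraries do not enter the dead-minus-wild-type difference itself. They do share the limma fit that gave its standard errors and p-values, so the choice of exon is not independent of those. In limma 0 of the 25 passed, and 3 had an unadjusted p under 0.05, beside 103 of 3506 over all tested events (2.94%): MARK3, CLSTN1 and HDAC7. The median difference between dead and wild type was 0.01, and it was 0.03 or less in absolute size in 15 of 25 and over 0.1 in 5. MARK3 and CLSTN1, whose inclusion was 0.02 in both vector libraries under TIP60 siRNA, were higher in the dead line than in the wild-type line. HDAC7, which stood at 0.29 and 0.38 in vector cells under TIP60 siRNA against 0.50 and 0.70 under control siRNA, was lower in the dead line. Exons with large siRNA differences in vector cells were close between the construct lines in some genes and apart in others. MYL6, a myosin light chain, had 0.79 and 0.80 in dead TIP60 against 0.76 and 0.80 in wild type, a difference of 0.015 ± 0.058 (SE). SBF1, a myotubularin-related pseudophosphatase, had 0.61 and 0.82 in dead TIP60 against 0.61 and 0.78 in wild type. ARHGAP17, a GTPase-activating protein, had 0.60 and 0.82 in dead TIP60 against 0.61 and 0.87 in wild type. ABI1, a subunit of the WAVE actin-nucleation complex, had 0.68 and 0.71 in dead TIP60 against 0.73 and 0.72 in wild type. The other 2 exons with differences over 0.1 were those of ADD3, an adducin of the membrane skeleton, at 0.05 and 0.04 in dead TIP60 against 0.10 and 0.26 in wild type, and of SLC37A2, a sugar-phosphate exchanger, at 0.40 and 0.57 in dead TIP60 against 0.70 and 0.53 in wild type. Both rest on single libraries: the difference became -0.037 for ADD3 without the wild-type R2 library, and for SLC37A2 it became -0.008 without the wild-type R1 library and fell under 0.1 in size without the dead-TIP60 R1 library as well. ADD3 had 0.72 and 0.58 in vector cells under TIP60 siRNA, far above every control-siRNA library.

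**Figure D4:**
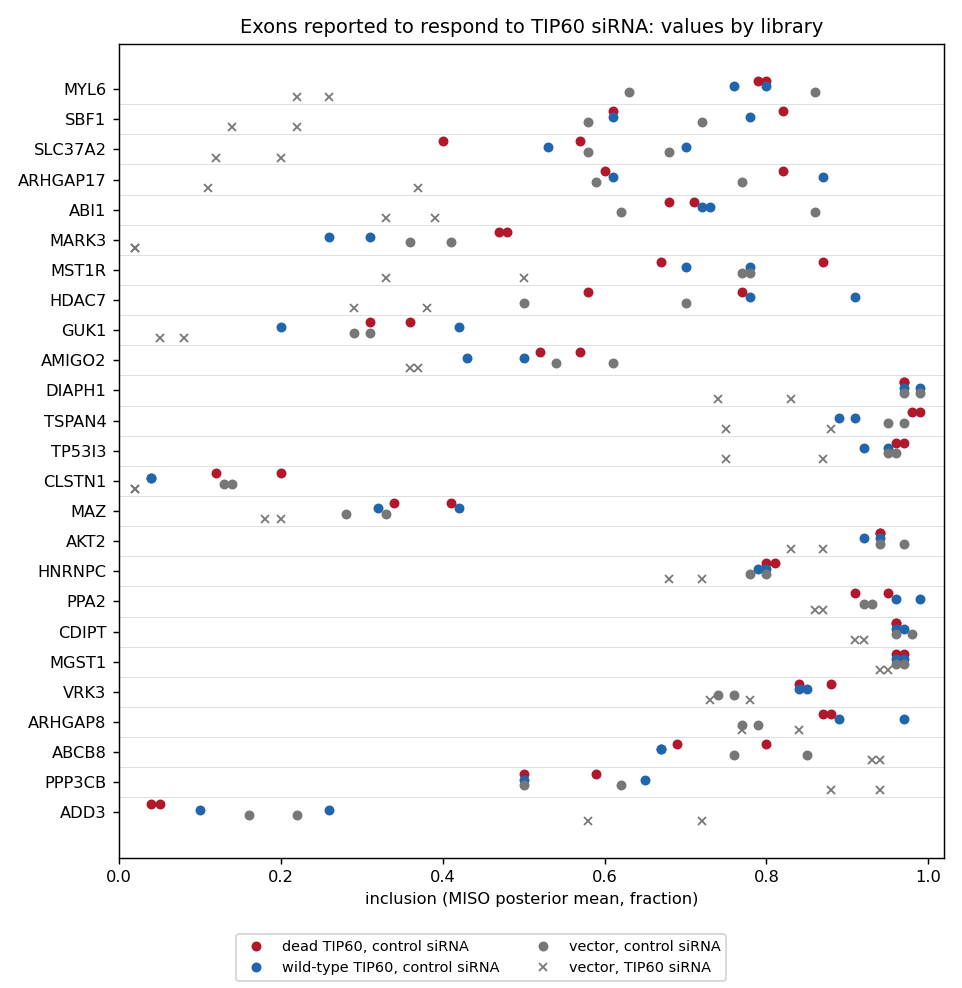
Inclusion of 25 exons reported to respond to TIP60 siRNA, 1 per gene, in the R1 and R2 libraries of dead TIP60 (red), wild-type TIP60 (blue) and vector cells (grey circles) under control siRNA and of vector cells under TIP60 siRNA (grey crosses), ordered by the siRNA difference in vector cells. The red and blue points differ by 0.03 or less in mean in 15 of the 25 exons, and MARK3, CLSTN1, HDAC7, ADD3 and SLC37A2 differ by more than 0.1.

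Across 16 gene lists, 0 events passed the adjusted threshold in limma for inclusion, and unadjusted counts per list were at most 5. The epithelial-mesenchymal splicing list holds genes with exons known to change between epithelial and mesenchymal cells. Every tested event of these genes was counted, not only those exons, giving 57 events in 27 genes. At an unadjusted p under 0.05 in limma, 4 were higher and 1 lower in the dead line. Over all 3506 tested events, 55 (1.57%) were higher and 48 (1.37%) lower. The median difference was 0.005 in the list against 0 over all tested events. MARK3 and PLOD2 were the members with the smallest p. The list of other acetyltransferases, deacetylases and chromatin factors had 34 events in 21 genes, 0 higher and 2 lower, which were SMARCC2 and HDAC7. The NuA4/TIP60 complex itself had 7 tested events in 4 genes, and 0 had an unadjusted p under 0.05. Its member of smallest p, MORF4L2, had 0.95 and 0.54 in dead TIP60 against 0.91 and 0.44 in wild type, with a far larger difference between R1 and R2 than between lines. SR proteins and related factors had 13 events with 0 at that level, and hnRNPs and other splicing regulators had 29 events with 1 higher, HNRNPD. Actin, myosin and adhesion genes had 67 events with 1 higher, CTNND1. The list of p53 targets and apoptosis genes had 39 events, 0 higher and 2 lower: the inflammatory caspase CASP1 had 0.65 and 0.73 in dead TIP60 against 0.83 and 0.82 in wild type, and PDCD10 had 0.02 and 0.03 in dead TIP60 against 0.05 and 0.09 in wild type. DNA damage response genes had 26 events with 1 higher, the mismatch repair gene PMS1, at 0.98 and 0.97 in dead TIP60 against 0.97 and 0.90 in wild type. Cell cycle genes had 33 events with 1 higher, SKA2 of the kinetochore, at 0.86 and 0.76 in dead TIP60 against 0.75 and 0.69 in wild type. Lists of RNA decay and translation (27 events), interferon response (16), lipid and sterol synthesis (25) and epithelial markers (11) had 0 events at that level, and the mesenchymal markers had 3 events with 1 higher, DCN. No immune marker had a tested event.

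Event reads in RPM give a rough level of the messages that hold these exons, and 0 of 3506 events (0%) passed an adjusted p of 0.05 in limma over all 12 libraries, with 37 at an unadjusted p under 0.05 (1.06%; 15 higher, 0.428%, and 22 lower, 0.627%, in the dead line). In the fit of the 4 libraries alone, with the replicate block and 1 residual degree of freedom per event, 72 events (2.05%) in 63 genes passed, 22 higher in the dead line (0.627%) and 50 lower (1.43%). KAT5 is one of the lower ones. The libraries of the groups did not overlap in 438 events (12.5%), 180 higher (5.13%) and 258 lower (7.36%). The correlation of the log2 ratios of the R1 pair and the R2 pair was 0.247 across events, against 0.050 for inclusion. Values below are RPM of an event and its log2 ratio with a pseudocount of 0.5, and levels are not compared between genes. In each, fewer cells of a type and less RNA per cell cannot be told apart.

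Among events with higher reads in the dead line, TP53I3, a p53-induced quinone oxidoreductase, had 755 and 882 RPM in dead TIP60 against 415 and 626 RPM in wild type. Its log2 ratio was 0.68 ± 0.28 (SE), and it passed in the 4-library fit (adjusted p = 0.00062 in limma) but not in the 12-library fit. The vector line had 779 and 636 RPM, nearer the dead line in R1 and nearer the wild-type line in R2. GCHFR, the feedback regulator of GTP cyclohydrolase, had 166 and 199.8 RPM in dead TIP60 against 107 and 124 RPM in wild type, and ACP2, a lysosomal acid phosphatase, had 32.2 and 28.1 RPM in dead TIP60 against 15.6 and 14.6 RPM in wild type. Both passed in the 4-library fit. IRX5, a homeobox factor, had 79.3 and 47.2 RPM in dead TIP60 against 35.3 and 31.2 RPM in wild type, and kept that order under TIP60 siRNA with 95.6 and 45.4 RPM in the dead line against 38.9 and 35.4 RPM in the wild-type line. It missed the threshold in the 4-library fit (adjusted p = 0.059 in limma). INSIG1, which retains the sterol sensor in the endoplasmic reticulum, had 385 and 361 RPM in dead TIP60 against 258 and 175 RPM in wild type. It also missed that threshold (adjusted p = 0.085 in limma on the 4 libraries). SHMT1, a folate-dependent serine enzyme, NECAP2, an endocytosis adaptor, and ARHGAP17 complete the 8 named, with log2 ratios of 0.74, 0.48 and 0.64. SHMT1, NECAP2 and ARHGAP17 missed the threshold in the 4-library fit (adjusted p = 0.26 for NECAP2 and 0.22 for ARHGAP17 in limma).

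Among events with lower reads in the dead line, TACC2, a centrosomal coiled-coil protein, had 807 and 759 RPM in dead TIP60 against 1717 and 1261 RPM in wild type, with 727 and 1322 RPM in the vector line. Its log2 ratio was -0.91 ± 0.35 (SE, adjusted p = 0.0032 in limma on the 4 libraries). MDM4, an inhibitor of p53, had 13.5 and 7.02 RPM in dead TIP60 against 22.7 and 19.3 RPM in wild type. TFAM, the mitochondrial transcription factor, had 18.3 and 13.4 RPM in dead TIP60 against 36.3 and 25.9 RPM in wild type, and CARS, the cysteinyl-tRNA synthetase, 14.9 and 10.2 RPM in dead TIP60 against 20.2 and 37.9 RPM in wild type. MDM4, TFAM and CARS passed in the 4-library fit. MTHFD2, a mitochondrial folate enzyme, had 867 and 773 RPM in dead TIP60 against 1108 and 1946 RPM in wild type at its most deeply read event. That event missed the threshold in the 4-library fit (adjusted p = 0.22 in limma), while another MTHFD2 event passed it (adjusted p = 0.0048). ESRP1, an epithelial splicing regulator, had 201 and 146 RPM in dead TIP60 against 264 and 313 RPM in wild type and missed the threshold in the 4-library fit (adjusted p = 0.12 in limma). The other 2 named, BTF3L4, a homologue of a nascent-chain factor, and PMAIP1, the pro-apoptotic NOXA, had log2 ratios of -0.51 and -0.76. Both missed that threshold as well (adjusted p = 0.054 and 0.0998 in limma on the 4 libraries).

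**Figure D5:**
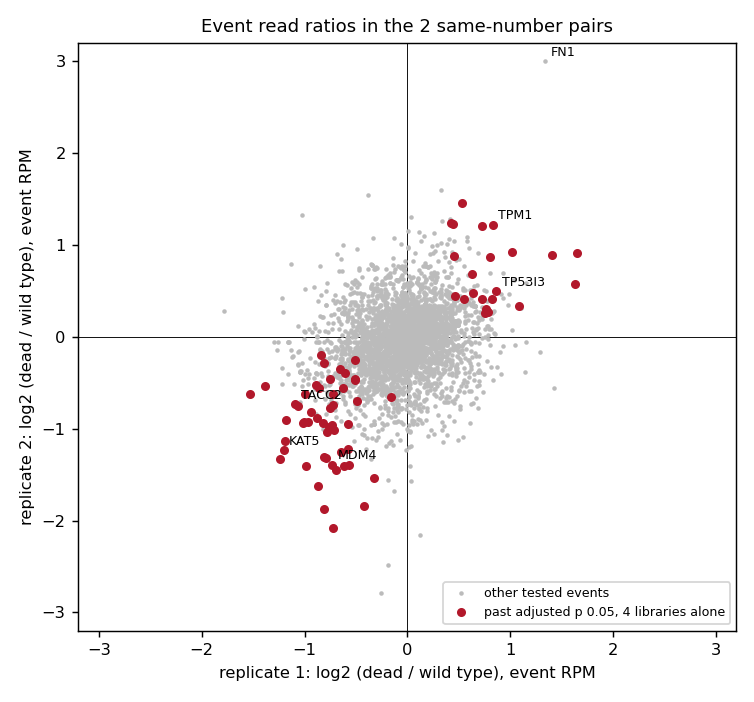
Log2 ratio (dead over wild type, control siRNA) of event reads (RPM), with a pseudocount of 0.5, for each of the 3506 tested events in the R1 pair (horizontal) and the R2 pair (vertical); red points passed an adjusted p of 0.05 in the fit of the 4 libraries alone. The 72 red points are 22 higher and 50 lower, and the correlation between pairs is 0.247.

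By gene list, p53 targets and apoptosis genes had 1 higher and 5 lower of 39 events in the 4-library fit, beside 22 and 50 of 3506 over all tested events. The higher one was TP53I3. The lower ones were MDM4, MDM2, the ubiquitin ligase of p53, ZMAT3, an RNA-binding p53 target, RRM2B, a ribonucleotide reductase subunit, and MCL1, an anti-apoptotic protein. MDM2 had 240.0 and 91.9 RPM in dead TIP60 against 398 and 154 RPM in wild type. Actin, myosin and adhesion genes had 3 higher and 2 lower of 67 events: 2 events of MYL6 and 1 of tropomyosin TPM1 were higher, and the laminin-receptor integrins ITGA6 and ITGB4 were lower. TPM1 had 84.6 and 30.0 RPM in dead TIP60 against 47.4 and 12.6 RPM in wild type. The hnRNPs and other splicing regulators had 0 higher and 2 lower of 29 events, both in the same gene. The epithelial-mesenchymal splicing list had 0 higher and 1 lower of 57 events, in ITGA6, and the NuA4/TIP60 complex 0 and 1 of 7, in KAT5. Over all tested events of the siRNA-responsive genes, 3 were higher and 0 lower of 45, in TP53I3 and MYL6. Lipid and sterol synthesis genes had 3 higher and 0 lower of 25 events, and all 3 were overlapping events of FDPS, farnesyl diphosphate synthase, so they share reads. Epithelial markers had 0 higher and 2 lower of 11 events, in TP63 and ITGB4, with a list median log2 ratio of -0.47 against -0.02 over all tested events. TP63, the basal epithelial transcription factor, had 34.1 and 14.0 RPM in dead TIP60 against 59.5 and 35.9 RPM in wild type. Mesenchymal markers had 1 higher of 3 events, DCN, at 65.4 and 23.6 RPM in dead TIP60 against 39.3 and 9.96 RPM in wild type. FN1, which encodes fibronectin, had the largest fitted log2 ratio of the 3506 events, with 235 and 83.0 RPM in dead TIP60 against 92.3 and 9.96 RPM in wild type. The ratio was 2.17 ± 0.56 (SE), with an adjusted p of 0.24 in limma on the 4 libraries. It ran from 1.54 to 2.80 as each of the 4 libraries was left out. The wild-type R2 value rests on 15 form-specific reads. The vector line had 169 and 43.1 RPM of FN1, so the wild-type line was the low one in each set.

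Under control siRNA, read level also moved with message length. With genes split into 3 equal groups by their longest protein-coding transcript, the median log2 ratio of dead to wild type was -0.13 in R1 and -0.08 in R2 for the 790 genes of the long group (4338 nt and over). It was -0.0037 and -0.04 for the middle group, and 0.07 and 0.03 for the short group (2497 nt and under). Genes called in the 4-library fit at their most deeply read event were 2 higher and 23 lower in the long group, 5 and 5 in the middle group, and 10 and 5 in the short group. Under TIP60 siRNA the R1 pair ran the other way, with medians of -0.01 in the long, -0.04 in the middle and -0.08 in the short group, while the R2 pair had -0.38, -0.22 and 0.01. The part of length in the differences of single genes was not tested.

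Under TIP60 siRNA the construct comparison of event reads called 1 of 3506 events (0.0285%) in limma, which was the actin-binding drebrin gene DBN1, lower in the dead line, with 359 at an unadjusted p under 0.05 (10.2%). Of the 19 genes higher in the dead line in the 4-library control-siRNA fit, 11 also had a higher log2 ratio under TIP60 siRNA, and of the 44 lower genes 36 had a lower one, beside 62.8% of all tested events, whose median log2 ratio there was -0.15. TP53I3 had 2397 and 3460 RPM in the dead line against 992 and 1336 RPM in the wild-type line under TIP60 siRNA. TACC2 had 417 and 244 RPM in the dead line against 580 and 537 RPM in the wild-type line. The order of the lines was thus the same under both siRNAs for TP53I3, TACC2, IRX5 and the KAT5 form without its exon. It was not so for every named gene. The log2 ratio of INSIG1 was 0.81 under control siRNA and -0.57 under TIP60 siRNA. That of TFAM was -0.95 and 0.24, and that of GCHFR 0.65 and -0.02. MDM4, not listed in the dead-line R2 library there, changed sign too. ACP2, NECAP2, ARHGAP17, CARS, MTHFD2, ESRP1, BTF3L4 and PMAIP1 kept their sign.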

How the data were processed

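RNA-seq of MCF10A cells was made from TRIzol RNA with a TruSeq Stranded mRNA kit, per the labels' protocols, and aligned with STAR to hg38, per the submitters' processing notes; neither source gives a version. Per the file headers, the deposited tables are MISO summaries of exon-skipping events: inclusion is a posterior mean, a fraction from 0 to 1 with a 95% interval, beside counts of reads that fit either form, both or neither. These counts are the authors'; from them event reads were divided by each library's total and scaled to 1000000 (RPM). Genes, exon classes and sequences came from GENCODE 29.

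Inclusion and log2(RPM + 0.5) were fitted with limma 3.58.1 in R 4.3.3 over all 12 libraries, with group and replicate number as terms, a trend on read number, robust variances and Benjamini-Hochberg adjustment over all tested events (5 residual degrees of freedom for complete events). Inclusion values of the other 8 libraries with fewer than 10 form-specific reads were set missing, which touched 811 of the 3506 events; 2695 were complete. The replicate numbers paired the libraries: over 15 pairs of groups the R1 minus R2 deviations in inclusion had correlations of 0.706 to 0.779. Of the tested events, 3309 lie on primary chromosomes, 197 were placed on no gene and 55 fitted more than 1 gene equally well. The fits were tested on simulated data, and the share of simulated inclusion changes that they recovered is not given here. Named exons are those of smallest p in each direction whose libraries do not overlap (10 a direction for inclusion, 8 for event reads, 1 event per gene there), KAT5, events with MISO intervals apart in both pairs, the 2 members of smallest p per gene list and the siRNA-responsive list. The members and lists were chosen with earlier results of these data known. Some genes are not reported here. Transcript lengths were matched for 2369 of 2391 genes. Alternatives covered the replicate block, read minimum, pseudocount, scaling, the 4 libraries alone, and leaving out each library.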

Additional observations from a re-analysis of the deposited data

Results flagged for a closer look

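Reads that MISO placed on the KAT5 event but that fit neither form were not part of any comparison. They stood at 4999.6 and 9594 per 1000000 event reads in dead-TIP60 libraries R1 and R2, at 11715 and 19216 in wild-type libraries, and at 62.8 and 129 in the vector libraries, which serve as the background. Both construct lines were thus above the vector line in each set, and the ratio of dead to wild type was 0.427 in R1 and 0.499 in R2, beside 0.431 and 0.378 for the form without the exon.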

How the results depend on the processing

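Results are given as settings changed singly. The number of exons past an adjusted p of 0.05 stayed at 0 under 12 of 13 alternatives in limma or the quasi-binomial model. It was 3 with the ratio of form-specific reads in place of the MISO value, of which 1 was in a gene list; CKAP5 and BCL2L13 were among them, with read-ratio differences of -0.012 and 0.0073. Without the replicate block it was 0, as with it, and 41 instead of 103 events had an unadjusted p under 0.05. For event reads the count of 0 became 72 in the fit of the 4 libraries alone with the replicate block, where 11 of the named genes passed, and it was 0 under the other 12. Under TIP60 siRNA the 1 event called became 0 without the replicate block. The 35 separated events became 1 with a gap of 0.2, 115 with a gap of 0.05, 17 with 20 or more form-specific reads, 111 with no read minimum and 14 with the read ratio. Leaving out a library in turn gave 207 to 250, since 3 libraries separate more easily. The cause of the other changes was not tested. For named exons and the event reads of named genes, the direction changed in 14 of 1239 refits, all of them of inclusion. With the read ratio, CLDN7 stood at 0.000211 and GUK1 at -0.0020. Leaving out a library in turn gave ranges that cross 0: -0.084 to 0.024 for ABI1, -0.072 to 0.012 for PPP3CB, -0.0033 to 0.013 for KAT5, -0.018 to 0.048 for MYL6, -0.007 to 0.027 for HNRNPC, -0.014 to 0.024 for MAZ, -0.084 to 0.134 for GUK1, -0.002 to 0.042 for SBF1, -0.185 to 0.095 for FN1, -0.04 to 0.1 for MST1R and -0.023 to 0.003 for DIAPH1. The range of MGST1, whose difference was 0, also crossed 0, at -0.006 to 0.006. The exons named first kept their direction, with 0.165 to 0.215 for MARK3, -0.236 to -0.174 for NKIRAS2 and 0.172 to 0.378 for CTNND1. The 95% interval of a difference, which rests on the spread between libraries, reached 0.0841 to either side in the median; the part of read depth in it was not tested.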

Other observations

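With the construct difference averaged over both siRNAs, a comparison chosen after seeing the data, 0 of 2870 events passed an adjusted p of 0.05 in limma for inclusion (smallest adjusted p 0.378, 133 at an unadjusted p under 0.05). For event reads 0 of 3506 passed (smallest adjusted p 0.173, 246 at an unadjusted p under 0.05).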
